A study of Homo sapiens with 8 samples.

Results

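Collagens are the main structural proteins of the extracellular matrix, and each collagen gene encodes 1 α chain of a collagen helix. All protein-coding genes whose symbol is COL, a number, A and a number were taken from the GENCODE annotation, which gave 44 of 20046 protein-coding genes. They were sorted into 11 fibrillar genes, 6 basement membrane genes (COL4A1 to COL4A6) and 27 other collagen genes. For each gene, the accessible regions that overlapped the gene body or the 20 kb on either side of it were collected, which gave 419 of the 126658 accessible regions found in any condition. Of these regions, 271 were intronic, 68 upstream and 50 downstream of the gene, 12 lay over a non-coding exon, 8 over a coding exon and 10 over a UTR. In all, 12 regions lay in the windows of 2 neighbouring collagen genes and were counted once in sums over genes.

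Fibrillar collagens, such as types I, III and V, form the banded fibrils of connective tissue and are made mainly by mesenchymal cells. Type IV collagen builds the sheet-like network of the basement membrane on which epithelia rest. The remaining collagens coat fibrils, form beaded filaments, anchor the epithelium to the stroma or span the plasma membrane. TGFβ signalling is known as an inducer of matrix genes in fibrosis and in epithelial-mesenchymal transition (EMT), in which epithelial cells leave their basement membrane and take on a mesenchymal matrix program.

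Chromatin accessibility had been measured by ATAC-seq, in which a transposase inserts sequencing adapters into DNA that is free of nucleosomes, in wild-type MCF10A. This human cell line is of mammary epithelial origin, grows indefinitely and does not form tumours. The solvent group, labelled as time 0, received 0.1% BSA in PBS, and the other groups received 5 ng/ml of recombinant human TGFβ1 for 6, 24 or 72 h. All groups were grown with horse serum, EGF, hydrocortisone, cholera toxin and insulin, and each held 2 libraries (8 in all), which the methods describe as independent biological replicates. A figure legend of the study gives the control plate 72 h of solvent and a common harvest for all plates, so the sources differ on how long the solvent group was treated.

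The deposited files hold 1 peak list per condition, called on both replicates together. No value per replicate was therefore analysed, none of the differences below could be set against the spread between replicates, and no test was possible. The measure of accessibility is the area under the curve (AUC) that the peak caller gave each peak. An AUC of 0 means that no peak passed the authors' threshold of 200, which applied before the scaling described next. The AUC grows with sequencing depth, which is unknown here, so each TGFβ1 list was divided by a factor (1.36, 1.30 and 1.19 for 6, 24 and 72 h) to set its median log2 ratio to solvent to 0 at regions within 3 kb of a transcription start site (TSS). A scaled AUC is a value after that division. Ratios that are 1.5-fold or more are counted below as a size and not as a test, and all 3 TGFβ1 lists are compared with the same solvent list. Intervals are 95% Wilson intervals that cover counting error only.

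The cell type was checked through peaks within 3 kb of the TSSs of marker genes. All 7 markers of basal mammary epithelium (KRT5, KRT14, KRT17, TP63, ITGB4, CDH1 and EPCAM) had such a peak in every list. Their summed scaled AUC ranged from 757 to 8823 in solvent and from 1031 to 12396 at 72 h. The check does not set cell types apart, since 4 of 5 fibroblast markers, both endothelial markers and 2 of 3 blood cell markers had a peak in every list as well. The range over fibroblast markers was 0 to 6124 in solvent and 226 to 7868 at 72 h, over endothelial markers 625 to 1633 and 2244 to 2363, and over blood cell markers 0 to 1510 and 0 to 2811. Among the fibroblast markers, LUM was at 0 in solvent and at a scaled AUC of 226 at 72 h, and among the blood cell markers CD3E was at 0 in every list. The summed scaled AUC was higher at 72 h than in solvent at all markers with peaks except EPCAM (2632 in solvent and 2136 at 72 h). Examples are DCN (379 and 1290), CDH5 (625 and 2244) and the epithelial markers KRT14 (2652 and 6404) and ITGB4 (8798 and 12396). The part of other cell types in the values below was not tested.

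To ask whether collagen genes gained accessibility under TGFβ1, the scaled AUC was summed over the regions of each gene. A ratio to solvent could be formed for 41 of the 44 genes. The summed AUC was 1.5-fold or more higher in 8 of 41 genes at 6 h (19.5%), in 17 at 24 h (41.5%) and in 18 at 72 h (43.9%). Over all protein-coding genes, the shares were 4.44%, 10.5% and 11.6%. No collagen gene was 1.5-fold or more lower in any list, where the share of all genes was 0.0557%, 0.217% and 0.401%. The median log2 ratio of the 41 genes was 0.29, 0.46 and 0.49 at the 3 times, against 0.04, 0.08 and 0.08 over all protein-coding genes. In bulk libraries, a region open in more cells and a region more open in each cell cannot be told apart.

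Many collagen genes are long and hold many regions. Among the 24 collagen genes with at least 8 regions, 4, 9 and 10 were 1.5-fold or more higher at 6, 24 and 72 h. Of all genes with at least 8 regions, 3.08%, 9.73% and 12.2% were. The ratio was above 0 in 36, 40 and 39 of the 41 collagen genes at the 3 times. For some of these genes the direction depended on the processing, as given below. Over all protein-coding genes the median was also above 0 (0.04, 0.08 and 0.08), with a lower quartile of -0.05 at each time. In 20 of the 41 collagen genes the ratio was larger at each successive time, in 22 it was largest at 72 h, and in 13 it was largest at 24 h. Genes above 0 and genes with these time orders were not counted over all protein-coding genes.

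The solvent list held 256 accessible collagen regions and the 6, 24 and 72 h lists held 346, 383 and 381. Regions with a peak under TGFβ1 and none in solvent are called gained here. At 6 h, 94 regions were gained, which is 27.2% of the collagen regions accessible at that time (95% CI 22.8 to 32.1), against 21.1% of the regions of all protein-coding genes. At 24 h, 132 regions were gained (34.5%, 29.9 to 39.4), against 27.0% over all genes, and at 72 h, 135 regions (35.4%, 30.8 to 40.4), against 26.3%. Few regions were lost, namely 4, 5 and 10 of the 256 solvent regions at 6, 24 and 72 h, where the share over all genes was 0.680%, 1.84% and 3.48%. Of the regions with a peak in both lists, 170 of 252 (67.5%) had a higher scaled AUC than solvent at 6 h, 183 of 251 (72.9%) at 24 h and 175 of 246 (71.1%) at 72 h. The corresponding shares over all genes were 56.6%, 59.0% and 60.2%. Counts of gained regions depend on the length of the lists, which is 86209 peaks for solvent and 116720 for 72 h. With every list cut to its 86209 peaks of largest AUC, 55 collagen regions were gained at 72 h (20.3% of those accessible, 15.9 to 25.5, against 12.8% over all genes) and 40 were lost (15.6% of the solvent regions, against 13.6%).

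Of the 419 collagen regions, 245 (58.5%) had a peak in every list, against 65.8% over all genes. Of the 94 regions gained at 6 h, 74 also had a peak at 24 and 72 h. These 74 regions (17.7%, 14.3 to 21.6) compare with 12.9% over all genes, and 39 (9.31%, 6.88 to 12.5) had a peak at 24 and 72 h alone, against 6.28%. Peaks at 6 h alone were found in 9 regions (2.15%), against 2.21% over all genes.

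**Figure D1:**
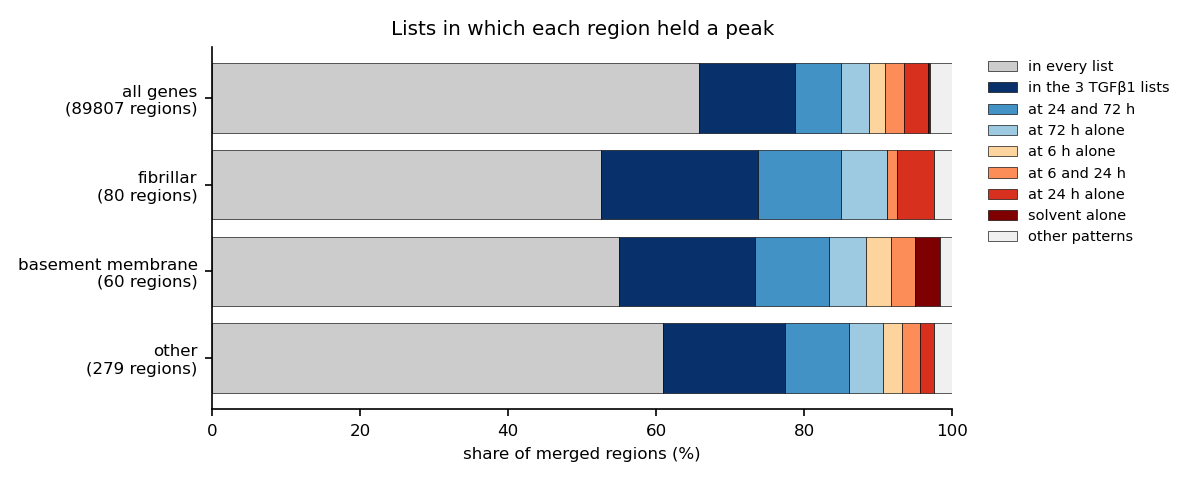
Bars give the share of merged regions (%) by the lists in which they held a peak, for the windows of all protein-coding genes and for the 3 collagen classes. The dark blue segment, a peak in all 3 TGFβ1 lists and none in solvent, is 12.9% for all genes, 21.2% for fibrillar, 18.3% for basement membrane and 16.5% for other collagens.

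Away from start sites, the collagen regions differed more from solvent than near them. A region was called distal when it lay more than 3 kb from every annotated TSS, which held for 257 of the 419 collagen regions (61.3%). The summed AUC of the distal collagen regions was 112405 in solvent and 188519 at 72 h, a log2 ratio of 0.75, against 0.47 for the distal regions of all genes. At proximal collagen regions the sum was 150063 in solvent and 175665 at 72 h, a log2 ratio of 0.23, against 0.03 for all genes. Gained regions made up 40.0% of the distal collagen regions accessible at 72 h (33.9 to 46.4), against 33.7% over all genes, and 28.1% of the proximal ones (21.4 to 35.9), against 16.5%. The fibrillar genes had the highest distal log2 ratio at 72 h, 1.04 over 48 regions, followed by the other collagens with 0.69 over 167 regions and the basement membrane genes with 0.63 over 42 regions. Near start sites, the log2 ratio was 0.40 for fibrillar, 0.21 for other and 0.04 for basement membrane genes. How far these differences between classes exceed the variation of replicates was not tested.

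**Figure D2:**
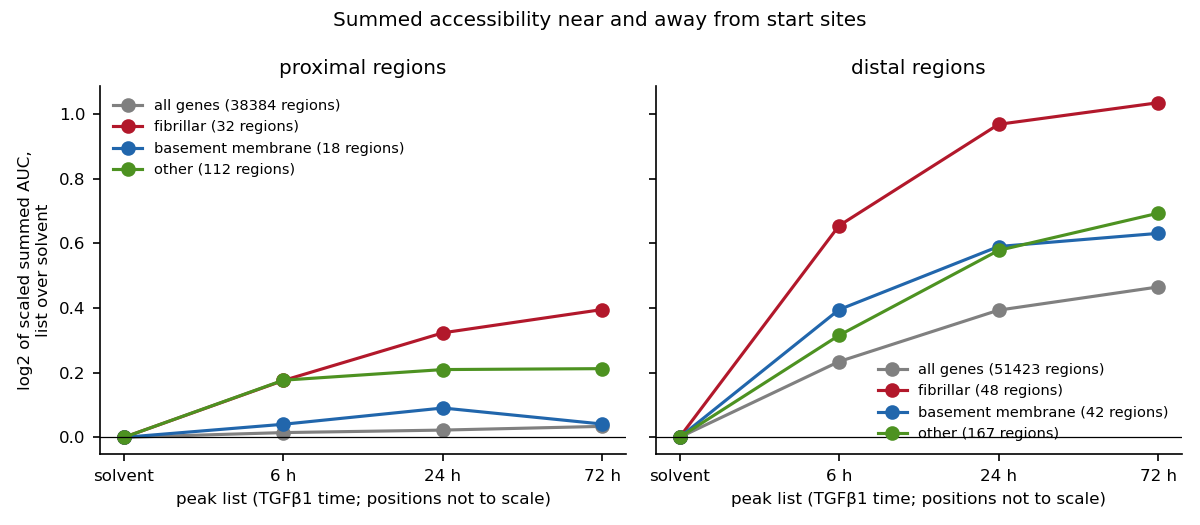
Lines give the log2 ratio of the scaled summed AUC to solvent in the 6, 24 and 72 h lists for proximal and distal regions of the 3 collagen classes and of all protein-coding genes, without replicate error. All lines lie higher at distal than at proximal regions, and fibrillar genes reach 1.04 at distal regions at 72 h, where all genes reach 0.47.

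Fibrillar collagen genes showed the largest ratio of the 3 classes. Their 80 regions had summed scaled AUCs of 47014 (solvent), 61986 (6 h), 72901 (24 h) and 76487 (72 h), which corresponds to log2 ratios of 0.40, 0.63 and 0.70. At 72 h the sum was thus 1.63-fold that of solvent. Fibrillar genes had the highest log2 ratio at all 3 times under each alternative run, except that with the AUC per base the 6 h ratio was 0.33 for fibrillar and 0.37 for basement membrane genes. Of the 9 fibrillar genes with a ratio, 6 were 1.5-fold or more higher at 72 h (66.7%), against 11.6% of all protein-coding genes. COL11A1 and COL3A1 had no peak in solvent.

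COL1A1 and COL1A2 encode the α chains of type I collagen, the most abundant collagen of connective tissue. COL1A2 (chr7:94394895-94431227, plus strand) had a summed AUC of 728 in solvent and of 1586, 2529 and 3026 after 6, 24 and 72 h (4.16-fold). Its values were thus higher at each successive time, and 3 of its 6 regions were absent from solvent. Over all genes, 26.3% of the regions accessible at 72 h were gained. The solvent sum of COL1A2 came from 3 peaks of 206, 219 and 302, close to the threshold for a peak. With an AUC of at least 400, no ratio could be formed for COL1A2. The region with the highest AUC at 72 h overlapped an exon within the gene (chr7:94423827-94424271) and went from 219 in solvent to 530, 711 and 1163. It lay 32 bp from another annotated TSS of COL1A2. At the TSS of the canonical COL1A2 transcript the AUC was 302 in solvent and 377 at 72 h. A region 12.0 kb upstream of that canonical TSS (chr7:94382753-94383126) had no peak in solvent and AUCs of 426, 932 and 761 under TGFβ1.

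COL1A1 (chr17:50184101-50201632, minus strand) had values of 9444, 12438, 14163 and 15068 in the 4 lists, a 1.60-fold difference at 72 h. Of its 10 regions, 8 lay within 3 kb of the TSS of another gene, and the largest (chr17:50177683-50179207; 4764 in solvent and 6092 at 72 h) lay downstream of the gene. The TSS region of COL1A1 had AUCs of 3724, 4031, 4233 and 4677. Without the region of largest difference, the log2 ratio of COL1A1 at 72 h was 0.50 instead of 0.67, below the 1.5-fold mark. It was also below that mark with scaling at all shared regions (0.53), for the gene body alone (0.32) and with windows of 50 kb (0.33), and it was 1.86 without the regions near other genes' TSSs. That region, 17.5 kb upstream of the TSS, was at 0 in solvent and at 712, 1182 and 1703 under TGFβ1. Part of this region recurs elsewhere in the genome, and whether its reads were assigned to the right copy was not tested.

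Type V collagen chains regulate the diameter of type I fibrils. COL5A1 (chr9:134641803-134844843, plus strand) had a summed AUC of 8359, 11479, 13606 and 13881, which is 1.66-fold at 72 h (log2 ratio 0.73, and 0.57 for the gene body alone), and none of its 13 regions lay near the TSS of another gene. The plot of 4 loci shows where along the gene its values differed. A region 16.8 kb upstream (chr9:134624620-134625413) went from 1040 in solvent to 2100, 2378 and 2378, and an intronic region 28.5 kb into the gene was at 0 in solvent and at 878, 1008 and 1118. An intronic region 137 kb into the gene was in contrast lower at each time after scaling, with 1169, 1057, 1035 and 980. Before scaling its values were 1169, 1435, 1346 and 1163, so its direction at 6 and 24 h rests on the scaling. No region lay within 1 kb of the canonical TSS of COL5A1 in any list. COL5A2 had 2281, 4166, 4328 and 4579 (2.01-fold), with most of the difference present at 6 h. COL5A3 had 2702, 2803, 3639 and 3262 (log2 ratio at 72 h 0.27), and its TSS region went from 452 in solvent to 301, 315 and 0.

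COL27A1 (chr9:114155537-114312511, plus strand), a fibrillar collagen of cartilage and other tissues, went from 7504 in solvent to 12598, 15568 and 16799 (2.24-fold). The values that differed most came from a cluster of intronic regions between 120 and 136 kb from the TSS, whereas the TSS region stayed between 688 and 788 in all lists. The log2 ratio of COL27A1 at 72 h of 1.16 was 0.48 with the AUC per base, below the 1.5-fold mark. COL24A1 had 1101, 1294, 2314 and 2680 (2.44-fold), and 56.1% of the difference came from a region that was absent from solvent and had an AUC of 886 at 72 h. COL2A1 and COL11A2, which encode cartilage collagen chains, had log2 ratios of 0.17 and -0.02 at 72 h. COL3A1, whose product accompanies type I collagen in distensible tissues, was at 0 in solvent and at 6 h and had a single region with 171 at 24 h and 239 at 72 h, close to the threshold for a peak. COL11A1 was at 0 in solvent and at 432, 1086 and 1504 under TGFβ1, with 4 regions at 72 h.

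**Figure D3:**
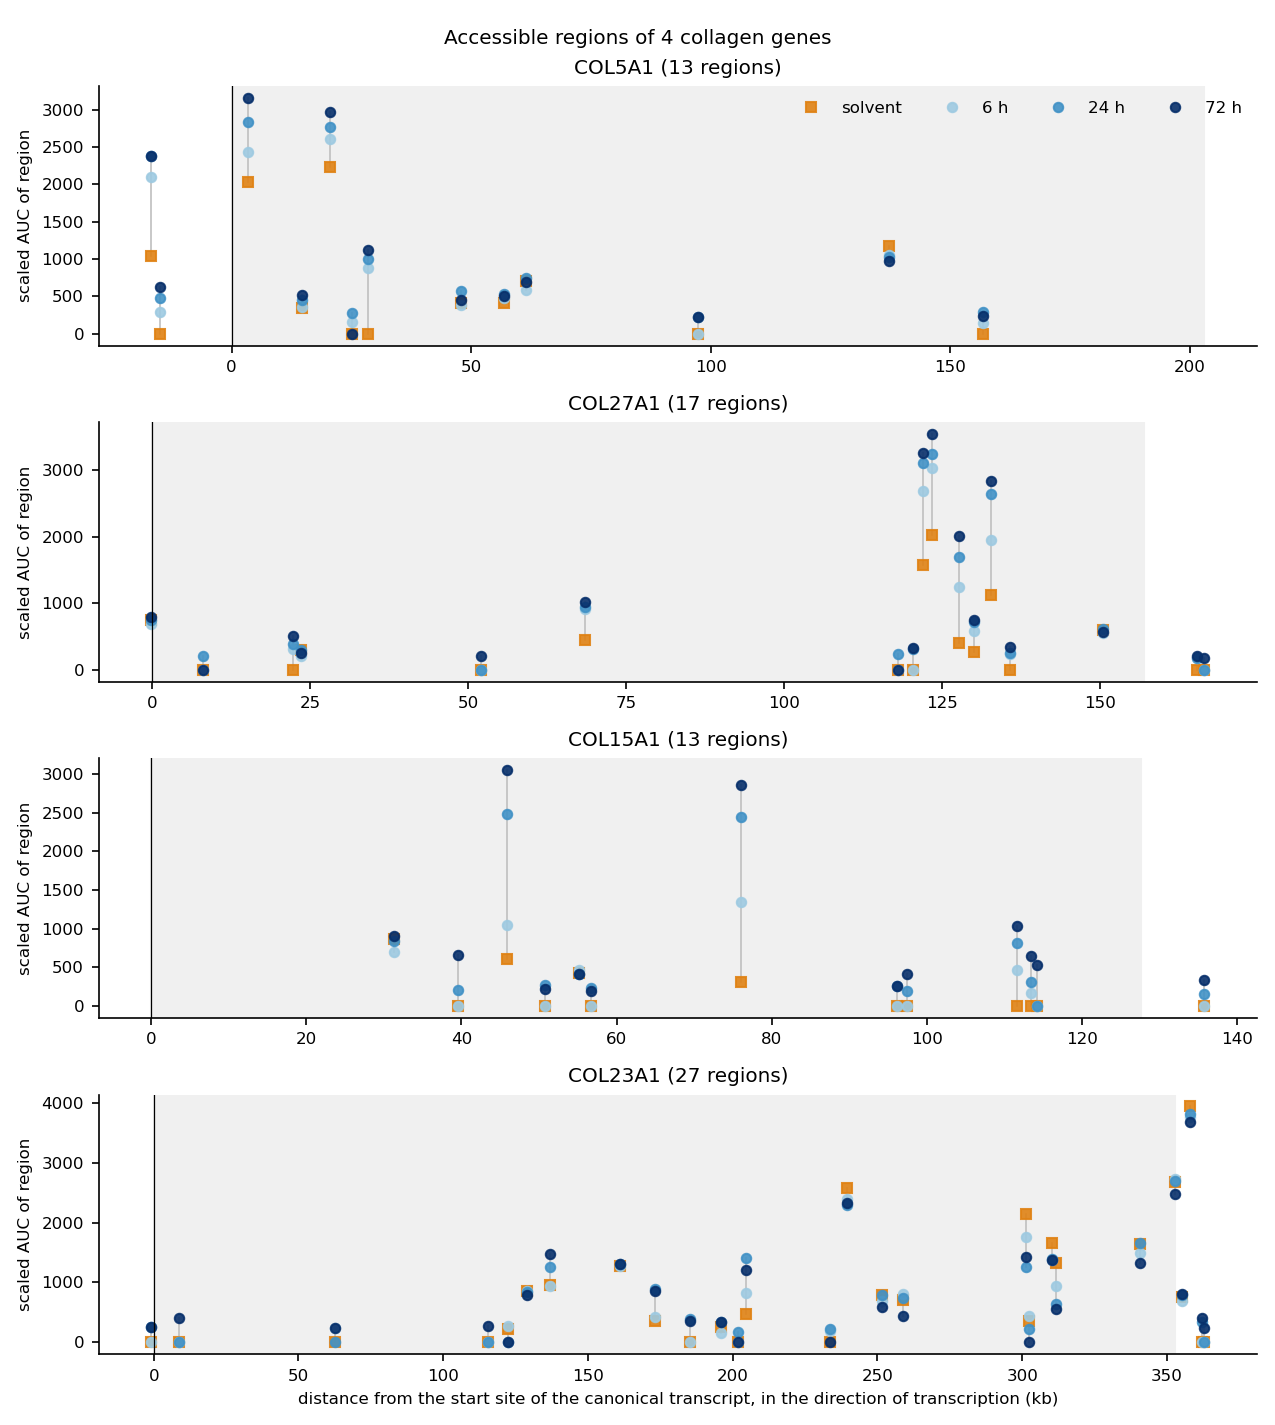
Points are the scaled AUCs of single regions in solvent (orange squares) and at 6, 24 and 72 h of TGFβ1 (circles, light to dark blue) against the distance from the TSS (kb), with the gene body shaded. Regions of COL15A1 reach 3050 and 2864 at 72 h from 612 and 308 in solvent, the larger regions of the intronic cluster of COL27A1 lie above solvent at all times, and several COL23A1 regions near 300 kb lie below solvent.

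The 6 basement membrane genes lie as 3 head-to-head pairs (COL4A1 with COL4A2, COL4A3 with COL4A4, COL4A5 with COL4A6), and the promoters between them are shared. Their 60 regions summed to 46336 in solvent and to 55506, 61422 and 61917 after 6, 24 and 72 h, a 1.34-fold difference at 72 h. The log2 ratio was 0.42 at 72 h, which was close to that at 24 h (0.41). As reported here, COL4A4 was the single gene of this class that was 1.5-fold or more higher, with 2471, 3286, 3883 and 4051 (1.64-fold). The share past 1.5-fold at 72 h was thus 16.7% of the 6 genes, close to the 11.6% of all protein-coding genes. Of the difference in COL4A4, 76.8% came from a region downstream of the gene (chr2:226995575-226996114), with 615 in solvent and 1214, 1767 and 1827 under TGFβ1. The log2 ratio of COL4A4 was 0.26 without it and for the gene body alone, 0.45 with lists of equal length and 0.57 with scaling at all shared regions, all below the 1.5-fold mark. COL4A1 was past that mark without regions near other genes' TSSs (0.70) and with the AUC per base (1.01), and with no scaling COL4A1 (0.72), COL4A2 (0.74) and COL4A6 (0.65) were.

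COL4A1 and COL4A2, which encode the ubiquitous type IV chains, had higher sums with little difference at their shared start site. COL4A1 (chr13:110148963-110307157, minus strand) had 11297, 13016, 14914 and 15689 (1.39-fold), and COL4A2 (chr13:110305812-110513209, plus strand) had 25745, 31334, 35337 and 36207 (1.41-fold). Their shared TSS region was at 4304, 4395, 4484 and 4533. The largest contribution came from an intronic region of COL4A2 (chr13:110346259-110348494) with 6531, 8519, 9127 and 9262. Regions of COL4A2 differed in both directions. Of its 23 regions accessible at 72 h, 10 were gained, and 3 of its 16 solvent regions were lost, against 26.3% and 3.48% over all genes. An intronic region (chr13:110415639-110416391) had 2034 in solvent and 1566, 1425 and 1429 under TGFβ1. Before scaling, that intronic region had 2126 at 6 h, above solvent. COL4A6 had 7991, 10186, 10916 and 10559. COL4A3 and COL4A5 had log2 ratios of 0.02 and 0.17 at 72 h. The promoter shared by COL4A3 and COL4A4 was lower at each time after scaling, with 1587, 1398, 1190 and 1141. Before scaling its values were 1587, 1898, 1549 and 1354, which is above solvent at 6 h.

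Among the 27 other collagens, 11 of 26 genes with a ratio were 1.5-fold or more higher at 72 h (42.3%), against 11.6% of all protein-coding genes. Their 279 regions summed to 169118 in solvent and to 198596, 217482 and 225781 under TGFβ1, a 1.34-fold difference. Genes of this group ranged from a log2 ratio of -0.01 for COL10A1, the collagen of hypertrophic cartilage, to 2.38 for COL15A1. Split by family, the log2 ratio at 72 h was 1.01 for the multiplexins COL15A1 and COL18A1, 0.63 for the 5 beaded filament genes of type VI collagen, 0.38 for the 4 transmembrane collagens, 0.37 for the 10 fibril-associated collagens and 0.33 for the 3 short-chain collagens.

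COL15A1 (chr9:98943179-99070792, plus strand), which encodes a proteoglycan collagen that links basement membranes to the underlying fibrils, had the largest ratio of all collagen genes with windows of 20 kb. Its sum was 2218 in solvent and 4214, 8645 and 11549 under TGFβ1 (5.21-fold at 72 h). With windows of 50 kb its log2 ratio at 72 h was 1.15 instead of 2.38, below those of COL1A2 (2.21) and COL25A1 (1.46), and COL1A2 was also higher without regions near other genes' TSSs (2.64) and with the AUC per base (1.82 against 1.60). Of its 13 regions, all accessible at 72 h, 9 were absent from solvent, against 26.3% of the regions accessible at 72 h over all genes. Intronic regions 45.9 and 76.1 kb into the gene went from 612 to 3050 and from 308 to 2864 between solvent and 72 h. No peak lay within 1 kb of its canonical TSS in any list. COL18A1, the other multiplexin, had 7320, 8217, 8507 and 7695, and the regions around its TSS went from 1592 in solvent to 1781, 1308 and 788. Before scaling, the 24 h value at these TSS regions lay above solvent, so its direction at 24 h rests on the scaling.

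COL17A1 (chr10:104031286-104085880, minus strand) encodes the transmembrane collagen of hemidesmosomes, which attach basal epithelial cells to the basement membrane. Its sum was 4338, 6490, 6756 and 8161 (1.88-fold), with single regions that differed in both directions. The log2 ratio at 72 h of 0.91 was below the 1.5-fold mark with windows of 50 kb (0.40), lists of equal length (0.49) and the AUC per base (0.43), and 1.46 with an AUC of at least 400. An intronic region 31.2 kb into the gene went from 437 to 775, 1051 and 1160, a region 4.98 kb upstream of the TSS had a peak of 682 at 72 h alone, and an intronic region 2.93 kb from the TSS had 462, 768, 548 and 224. COL25A1, a transmembrane collagen of neurons, had 2761, 5236, 7007 and 8278 (log2 ratio 1.58 at 72 h). Of its 15 regions accessible at 72 h, 10 were gained. COL23A1 (chr5:178237476-178590393, minus strand), another transmembrane collagen, had nearly equal sums of 22972, 22272, 23719 and 23142. Of its 23 regions accessible at 72 h, 7 were gained, and 2 of its 18 solvent regions were lost. Over all genes, 26.3% of the regions accessible at 72 h were gained and 3.48% of the solvent regions lost. Within COL23A1, an intronic region 312 kb from the TSS went from 1326 in solvent to 946, 643 and 557, and another 205 kb from the TSS from 470 to 826, 1413 and 1214. An intronic region of COL14A1, a fibril-associated collagen (chr8:120204214-120205049), had 2518, 2104, 1515 and 1105. Before scaling, that COL14A1 region had 2858 at 6 h, above solvent.

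COL20A1 and COL21A1 belong to the fibril-associated collagens. COL20A1 had 482, 876, 1386 and 1733 (3.60-fold) over 4 regions. Its log2 ratio at 72 h of 1.85 was 0.28 with windows of 50 kb, below the 1.5-fold mark, and 1.14 without its region of largest difference. The solvent sum of COL20A1 came from 2 peaks of 202 and 280, close to the threshold for a peak. COL21A1 had 10789, 14252, 16053 and 19102 (1.77-fold). Of its 26 regions accessible at 72 h, 14 were gained, against 26.3% over all genes. COL9A3 and COL16A1, of the same family, had log2 ratios of 0.03 and 0.07 at 72 h. COL12A1 had 5972, 7054, 6811 and 8086, and its intronic region 9.91 kb from the TSS was at 0, 198, 298 and 1322. COL7A1, the anchoring fibril collagen that ties the basement membrane to the stroma, had 20518, 23347, 22714 and 22447. Its TSS region went from 2719 to 4743, 4680 and 4490, while 7 of its 9 regions lay near the TSS of another gene, without which its log2 ratio at 72 h was 0.59 instead of 0.13. COL6A5 had no solvent peak and sums of 491, 776 and 952 under TGFβ1. COL6A6 went from 233, close to the threshold for a peak, to 508, 608 and 786 at a single region. COL24A1, COL18A1, COL21A1, COL7A1, COL10A1, COL6A6 and the sum of COL12A1 are named here after their values were seen. The same holds for the regions of COL1A2 at the TSS and upstream of it, of COL1A1 at the TSS and downstream, of COL5A1 upstream, of COL24A1 and COL17A1, the COL27A1 cluster, the COL4A2 region of largest contribution and the COL23A1 region 205 kb from the TSS.

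Per kb of window, COL7A1 had the highest AUC in solvent (288), followed by COL16A1 (168), COL1A1 (164) and COL11A2 (138), where the median of the 44 genes was 32.1. COL15A1 went from 13.2 per kb in solvent to 68.9 at 72 h, and the median of the 44 genes from 32.1 to 45.3.

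At the start sites themselves, fewer differences were seen. The scaling had set the median log2 ratio of regions within 3 kb of a TSS to 0. Ratios near 0 at start sites are therefore partly fixed by that step, and start-site ratios under another scaling are not given here. Within 1 kb of the canonical TSS, 22 of the 44 collagen genes had a peak in solvent (22, 23 and 22 in the TGFβ1 lists), and 21 had none in any list. Among all protein-coding genes, 65.9% had a TSS peak in solvent. Of the 21 collagen genes with a TSS peak in solvent and at 72 h, 2 were 1.5-fold or more higher (COL7A1, log2 ratio 0.72, and COL17A1, 0.62), against 2.60% of all genes, and 1 was lower (COL18A1, -1.01), against 1.06%. The median TSS log2 ratio at 72 h was 0.07 for the collagen genes and -0.08 for all genes. These 21 genes are not 21 separate start sites, since paired type IV genes share TSS regions that count for both genes. The collagen median is the value of the region shared by COL4A1 and COL4A2. COL23A1 had no TSS peak in solvent or at 6 h and AUCs of 257 and 261 at 24 and 72 h.

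The sequences around the summits of regions with large values in 1 direction are shown because they are among the collagen regions whose accessibility differed most. They are 201 bases of the plus strand of GRCh38, read from the hg38 sequence and centred on the summit of the highest peak. Capitals mark matches, on either strand, to the AP-1 motif (TGACTCA or TGAGTCA), which binds FOS and JUN proteins, to the TEAD motif (GGAATG) and to the SMAD half-site (CAGAC), which binds the effectors of TGFβ signalling. Gained in COL5A1, COL4A2 and COL12A1 (introns), higher in COL27A1 and COL15A1 (introns), and lower in COL4A2 and COL23A1 (introns) are, in this order:
COL5A1 intron, gained, chr9:134670238-134670438: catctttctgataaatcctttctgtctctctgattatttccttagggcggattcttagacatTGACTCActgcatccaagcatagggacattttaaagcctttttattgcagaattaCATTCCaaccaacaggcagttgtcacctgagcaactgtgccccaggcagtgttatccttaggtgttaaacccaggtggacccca
COL4A2 intron, gained, chr13:110312636-110312836: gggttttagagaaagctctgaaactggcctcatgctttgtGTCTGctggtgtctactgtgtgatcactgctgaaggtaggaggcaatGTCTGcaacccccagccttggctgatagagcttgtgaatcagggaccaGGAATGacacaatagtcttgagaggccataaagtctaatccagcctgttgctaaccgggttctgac
COL12A1 intron, gained, chr6:75196040-75196240: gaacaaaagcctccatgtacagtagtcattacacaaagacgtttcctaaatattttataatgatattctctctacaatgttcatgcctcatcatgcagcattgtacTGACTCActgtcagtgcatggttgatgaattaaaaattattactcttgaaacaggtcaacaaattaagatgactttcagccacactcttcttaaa
COL27A1 intron, higher, chr9:114283115-114283315: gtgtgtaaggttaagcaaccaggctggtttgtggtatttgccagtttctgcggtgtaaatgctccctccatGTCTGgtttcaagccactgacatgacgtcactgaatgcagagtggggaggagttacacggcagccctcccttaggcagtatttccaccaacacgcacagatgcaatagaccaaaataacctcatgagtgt
COL15A1 intron, higher, chr9:98989730-98989930: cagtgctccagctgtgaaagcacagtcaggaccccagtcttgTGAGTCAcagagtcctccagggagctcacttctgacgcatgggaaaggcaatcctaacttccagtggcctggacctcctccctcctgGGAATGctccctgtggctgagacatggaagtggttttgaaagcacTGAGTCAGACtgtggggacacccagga
COL15A1 intron, higher, chr9:99019881-99020081: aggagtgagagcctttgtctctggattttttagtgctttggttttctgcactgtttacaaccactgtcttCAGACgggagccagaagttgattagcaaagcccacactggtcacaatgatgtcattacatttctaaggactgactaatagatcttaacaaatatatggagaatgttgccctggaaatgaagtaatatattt
COL4A2 intron, lower, chr13:110415748-110415948: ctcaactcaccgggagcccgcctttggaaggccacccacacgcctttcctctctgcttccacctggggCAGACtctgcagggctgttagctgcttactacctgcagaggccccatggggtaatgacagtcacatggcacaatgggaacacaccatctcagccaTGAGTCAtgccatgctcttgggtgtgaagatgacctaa
COL23A1 intron, lower, chr5:178278785-178278985: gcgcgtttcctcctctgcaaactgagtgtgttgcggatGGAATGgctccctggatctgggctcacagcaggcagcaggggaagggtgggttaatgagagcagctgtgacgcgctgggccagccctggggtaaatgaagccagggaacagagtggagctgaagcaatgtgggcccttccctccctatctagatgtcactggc

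The window from the COL15A1 region 45.9 kb into the gene holds 2 AP-1 matches, and those from COL5A1 and COL12A1 hold 1 each. Of the 6 gained regions named by rule, not all of which are shown, 2 had an AP-1 match. No AP-1 match lies in the windows of the COL4A2 gained region, the COL27A1 region or the COL15A1 region 76.1 kb into the gene. The COL4A2 region that was lower under TGFβ1 also holds 1 match. Words of 32 bases that occur more than once in the genome filled at least 50% of the window in 2 of the 135 regions gained at 72 h and in 0 of the 246 shared regions. Whether reads were assigned to the right copy there was not tested.

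Counted over all gained collagen regions at 72 h, an AP-1 match lay within the 201 bases in 56 of 135 (41.5%, 33.5 to 49.9), against 38.8% of the gained regions of all genes. In collagen regions shared with solvent, 72 of 246 had a match (29.3%, 23.9 to 35.2), against 28.0%. Restricted to distal regions, the share was 39.4% (30.1 to 49.5) in gained and 36.9% (29.4 to 45.1) in shared collagen regions, against 40.1% and 36.8% over all genes. The collagen intervals include the value of all genes in each case. A TEAD match lay in 18.5% of gained and 18.3% of shared collagen regions, against 18.8% and 14.2%. The SMAD half-site, whose short letters occur often by themselves, lay in 34.8% of gained collagen regions (27.3 to 43.2), against 42.9%, and in 42.3% of shared ones (36.3 to 48.5), against 37.9%. The E-box CACCTG, which is bound by SNAIL and ZEB proteins, lay in 23.0% of gained collagen regions (16.7 to 30.7), against 15.2%, and in 19.1% of shared ones, against 19.2%. Of the 5 motifs searched in gained regions, this was the one whose collagen interval did not include the value of all genes. Restricted to distal gained regions, the E-box share was 21.3% (14.2 to 30.6), against 14.8%, and that interval includes the value of all genes. The SMAD palindrome GTCTAGAC lay in 0 of 135 gained collagen regions, which allows a share of up to 2.77%, against 0.463%. All motifs were searched on both strands, and matches of different motifs could overlap, as an AP-1 and a SMAD match do in the COL15A1 window with 2 AP-1 matches. A match is a letter string and does not show binding.

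Beyond the collagens themselves, 30 genes of collagen biosynthesis (hydroxylases, chaperones, propeptide proteases and cross-linking enzymes) were examined. Of these, 3, 4 and 4 were 1.5-fold or more higher at 6, 24 and 72 h (against 4.44%, 10.5% and 11.6% of all genes) and none was lower, with a median log2 ratio of 0.15 at 72 h. The genes past 1.5-fold at 72 h were ADAMTS2 and ADAMTS14, which cleave procollagen N-propeptides, P4HA3, a prolyl hydroxylase subunit, and TLL1, a procollagen C-proteinase. ADAMTS2 had 1879 in solvent and 3199, 5256 and 5367 under TGFβ1, and P4HA3 had 3363, 7032, 9511 and 9293. TLL1 had 8538, 13969, 14384 and 15861, and ADAMTS14 had 6276, 8235, 10337 and 10180. The lowest log2 ratios at 72 h were -0.17 for P3H1, -0.15 for P3H4 and -0.13 for PPIB, the first a prolyl 3-hydroxylase and the last a prolyl isomerase that helps to fold procollagen. Of 8 collagen receptor genes, 6 had a ratio and none of them was 1.5-fold higher or lower in any list. The highest receptor values at 72 h were 0.51 for ITGA1, the integrin α1 chain, and 0.49 for DDR2, a receptor tyrosine kinase for fibrillar collagen, and the lowest were -0.06 for DDR1 and -0.05 for ITGA10. GP6 and LAIR1, receptors of platelets and leukocytes, had no region in any list.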

How the data were processed

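ATAC-seq libraries of MCF10A cells, 2 per condition, had been processed by the authors. Per the labels and the methods of the study, reads were trimmed with Trimmomatic 0.38, aligned to GRCh38 with Bowtie2 2.4.5, cleared of duplicates with Picard and filtered with SAMtools 1.4.1 (versions from the submitters' processing notes). Peaks were called on both replicates together with Genrich 0.5, and blacklisted regions were removed. The deposited signal is the AUC of each peak, and each list was matched to its condition by the authors' name for that list. The other deposited columns were not used. Sequencing depth per library is unknown here, and a deeper list can hold more peaks of larger AUC.

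Peaks of the 4 lists that overlapped by at least 1 bp were merged into regions and assigned to genes of GENCODE 44 (gene body with 20 kb on either side). Each TGFβ1 list was scaled by its median log2 ratio to solvent at shared regions within 3 kb of a TSS. Sums and ratios were formed per gene and class and no test was run, since each condition has 1 list. The steps were tested on simulated data. Named genes were the 4 markers COL1A1, COL4A1, COL5A1 and COL17A1, the 3 genes of largest and of smallest ratio at 72 h per class (2 or more shared regions), and genes without a solvent peak. Regions named by rule were the 2 most extreme gained, lost, higher and lower ones per class, and those named outside it were chosen after their values were seen. The members and lists were chosen with earlier results of these data known. Alternatives covered the scaling, the AUC minimum, the list length, the gene window, neighbouring start sites, the AUC per base, the classes and the overlap. Python 3.11.15, numpy 2.4.6, pandas 2.3.3, scipy 1.17.1, matplotlib 3.10.9 and pysam 0.24.0 were used. The sequences of some named regions are not reported here.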

Additional observations from a re-analysis of the deposited data

How the results depend on the processing

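No paired analysis was possible because each condition has 1 list called on both replicates together, and for the same reason no replicate could be left out. The log2 ratios of the 3 classes kept their sign under each alternative that was run. All alternatives that gave a value were run for 21 single genes, whose ratios at 72 h changed sign 28 times, in 7 genes with a reported ratio between -0.02 and 0.27 (COL11A2, COL16A1, COL23A1, COL4A3, COL4A5, COL5A3 and COL9A3). For the 20 other genes with a ratio, 3 alternatives were run, under which COL10A1 went from -0.01 to 0.23 with no scaling and COL18A1 from 0.07 to -0.03 without its region of largest difference. No direction can be given for these 9 genes. Of the values that answer a comparison, 176 stayed close to the reported value and 79 moved, and of those for single genes 100 stayed close and 126 moved. The causes were not tested. With no scaling, the median log2 ratio of all genes shifted to 0.48, 0.46 and 0.33 at 6, 24 and 72 h and that of the collagens to 0.73, 0.84 and 0.74, and with scaling at all shared regions the medians were -0.02, -0.05 and -0.06 for all genes and 0.23, 0.34 and 0.35 for the collagens. The number of collagen genes 1.5-fold or more higher at 72 h ranged from 12 (50 kb windows) to 26 (no scaling). With 50 kb windows this was 29.3%, against 11.3% of all genes, and with no scaling 63.4%, against 22.5%. The share of all genes was lowest with lists of equal length (7.89%), which gave 13 of 40 collagen genes (32.5%).

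Without scaling, the log2 ratios at 6, 24 and 72 h were 0.84, 1.01 and 0.95 for fibrillar, 0.70, 0.79 and 0.67 for basement membrane and 0.67, 0.74 and 0.66 for other collagens. Past 1.5-fold were 29, 30 and 26 of 41 collagen genes at 6, 24 and 72 h, against 29.5%, 32.6% and 22.5% of all genes. Of the shared regions, 96.4%, 92.8% and 89.8% were higher. For the alternatives, the share of shared regions was not computed over all genes. Scaling at all shared regions gave 0.51 and 0.56 at 24 and 72 h for fibrillar, 0.28 and 0.27 for basement membrane and 0.24 and 0.27 for other collagens. It gave 11 genes at 24 h (26.8%, against 7.71% of all genes) and shares of 58.7%, 58.2% and 57.3% of shared regions. Scaling within 1 kb of protein-coding TSSs gave a share of 78.1% at 24 h. Lists of equal length gave 0.51 and 0.58 at 24 and 72 h for fibrillar, 0.31 at 72 h for basement membrane and 0.22 and 0.28 for other collagens. They gave 11 genes at 24 h (26.8%, against 6.82% of all genes). Gained were 26, 39 and 55 regions (9.85%, 14.6% and 20.3%, against 7.99%, 11.1% and 12.8% over all genes). Lost were 18, 28 and 40 (7.03%, 10.9% and 15.6%, against 5.82%, 10.8% and 13.6%). An AUC of at least 400 left 0, 2 and 5 lost regions. These were 0%, 1.15% and 2.87% of the solvent regions, against 0.448%, 1.46% and 2.96% over all genes. Gene bodies alone left 1, 2 and 6 lost regions (0.538%, 1.08% and 3.23%, against 0.630%, 1.72% and 3.29%). They gave a fibrillar log2 ratio of 0.81 at 72 h. Windows of 50 kb gave 0.51 and 0.57 for fibrillar at 24 and 72 h and 5 genes at 6 h (12.2%, against 4.24% of all genes). Assignment to the nearest TSS gave 0.58, 0.90 and 1.02 for fibrillar, 0.49 and 0.57 for other collagens at 24 and 72 h, and a share of 76.9% at 72 h. Without regions near other genes' TSSs, the values were 0.55, 0.85 and 0.92 for fibrillar, 0.52 and 0.55 at 24 and 72 h for basement membrane and 0.48 and 0.55 for other collagens, with 1, 3 and 5 lost regions and a share of 79.2% at 24 h. The AUC per base gave 0.37 and 0.54 for basement membrane at 6 and 72 h. Without COL11A2, the fibrillar values were 0.76 and 0.84 at 24 and 72 h. An overlap of 50% left 38, 35 and 39 lost regions. The share of lost regions over all genes was not counted for this overlap or without regions near other genes' TSSs. Distal regions alone, an alternative chosen after seeing the data, gave 0.65, 0.97 and 1.04 for fibrillar, 0.40, 0.59 and 0.63 for basement membrane and 0.58 and 0.69 at 24 and 72 h for other collagens.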
